A study of Mus musculus with 20 samples.

Results

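In serotonin (5-HT) neurons without the transcription factor Pet-1, 143 genes were listed at a higher level than in the wild type in both of the knockout comparisons deposited for stage E15.5 (E for embryonic day). The genes were chosen by a rule on the authors' deposited tables: an estimate with status OK in both, and log2((knockout FPKM + 1)/(wild-type FPKM + 1)) of 0.6 or more with the Clontech kit and with the NuGEN kit. FPKM counts fragments per transcript length and library size. Of 22552 genes in the tables, 12749 had that status in both and 154 of these, or 1.21%, reached the threshold. Leaving out 11 by name (Calb2, Penk, Tac1, Crhbp, Mc4r, Neurod6, Robo2, Meis2, Nkx2-2, Gpr153 and the pseudogene Olfr856-ps1) gave the 143 members. Both knockout contrasts were used for the choice, so knockout values are given as a description and no test of them is made.

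The samples came from C57BL/6 mice. EYFP-positive 5-HT neurons were sorted, as pools of cells, from wild-type embryos at E11.5 and E15.5, from wild-type pups of postnatal days 1 to 3 (PN), and from Pet-1-/- embryos at E15.5. RNA was amplified with the Clontech kit at all 3 stages and for 1 knockout group, and with the NuGEN kit for a second wild-type and a second knockout group at E15.5, with 3 libraries in each of these 6 groups. Chromatin from the YFP-positive hindbrain of Pet-1-/- embryos that carried the transgenes ePet-mycPet-1 and ePet-EYFP was precipitated through the Myc tag, with 1 sample and 1 input. One field of the labels calls that sample wild type. Its ages begin at E12.5, and the last age is given as E14.5 in one place and E15.5 in another. The ePet enhancer, from the Pet-1 locus, drives expression in 5-HT neurons. The labels do not say whether the libraries of a group came from separate animals, so p-values measure the spread between these libraries, which may be technical.

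Pet-1, encoded by Fev, is an ETS-family factor that acts as a terminal selector of the serotonergic fate: it maintains the genes for serotonin synthesis, reuptake and vesicular packaging. ETS factors bind DNA at sites with a GGAA core, and can activate or repress. The genes described below are ones whose transcripts were more abundant without Pet-1, and they include corepressors, secreted factors, receptors, calcium sensors and regulators of small GTPases.

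In the authors' deposited tables Fev was at 31.1 FPKM in the wild type and 0.422 in the knockout with the Clontech kit, and at 34.9 and 0.308 with the NuGEN kit. Of 14 genes of serotonin identity, 6 were lower and 0 higher at the authors' q below 0.05 in both tables, among them Tph2, the serotonin-synthesising hydroxylase, at 63.5 and 9.75 FPKM (Clontech), and Slc6a4, the serotonin transporter, at 25.6 and 6.21. The EYFP-positive cells of the wild type thus held the transcripts that define 5-HT neurons. In sorted pools, fewer cells of a type and less RNA per cell cannot be told apart. The 9 stage libraries had FPKM sums of 630091 to 919994, the number of reads is unknown, and the knockout tables hold group values only, with no library values. Markers of other cells moved with the genotype in the Clontech table: the summed level of 9 astrocyte and radial glia markers was 1425 FPKM in the wild type and 490.5 in the knockout, 6 of 8 with status OK were lower and 0 higher, and Gfap was at 0.00290 and 0. With the NuGEN kit the same sums were 189 and 314, with 2 lower, Slc1a3 and Vim, and 1 higher, Fabp7. Most of each of these sums was Fabp7, at 1289 and 458 FPKM (Clontech) and 135 and 284 FPKM (NuGEN) in wild type and knockout. For 8 microglia markers the sums were 17.3 and 2.45 (Clontech) and 1.96 and 0.632 (NuGEN), and all 8 were under 1 FPKM in both NuGEN groups. In the NuGEN table the X-linked Xist was at 3.20 and 12.98 FPKM and the Y-linked Ddx3y at 5.21 and 2.62. Gab3 was the 1 member on the X chromosome, and 0 members lay on the Y. The part of these marker differences in the members' values was not tested.

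Most of the members were genes of low level. In the wild type their median was 2.09 FPKM (Clontech) and 2.44 (NuGEN), against 5.21 and 5.95 for the 12749 genes, and it was 4.85 and 6.00 in the knockout. The range of the wild-type values ran from 0 to 282 FPKM with the Clontech kit and from 0 to 147 with the NuGEN kit. In the Clontech wild type 39 members were under 1 FPKM and 24 over 10. The median log2 ratio of the members was 0.79 (Clontech) and 0.87 (NuGEN), a size that the threshold sets, and over all genes it was -0.01 and 0.07. For 16 members both ratios were 1 or more, and for 58 the smaller of both was under 0.7. The Clontech list at the threshold held 531 genes, 29.0% of which were also in the NuGEN list of 1347 genes, and 11.4% of the NuGEN list were in the Clontech list. By the authors' q-value, below 0.05 and higher, 31 members were called in the Clontech table, where 0.894% of all genes were. The NuGEN table called 99 members, with 7.24% of all genes called. Both tables called 27 members (0.298% of all genes), and neither called 40. These counts belong to the contrasts that chose the members and carry no further weight.

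**Figure D1:**
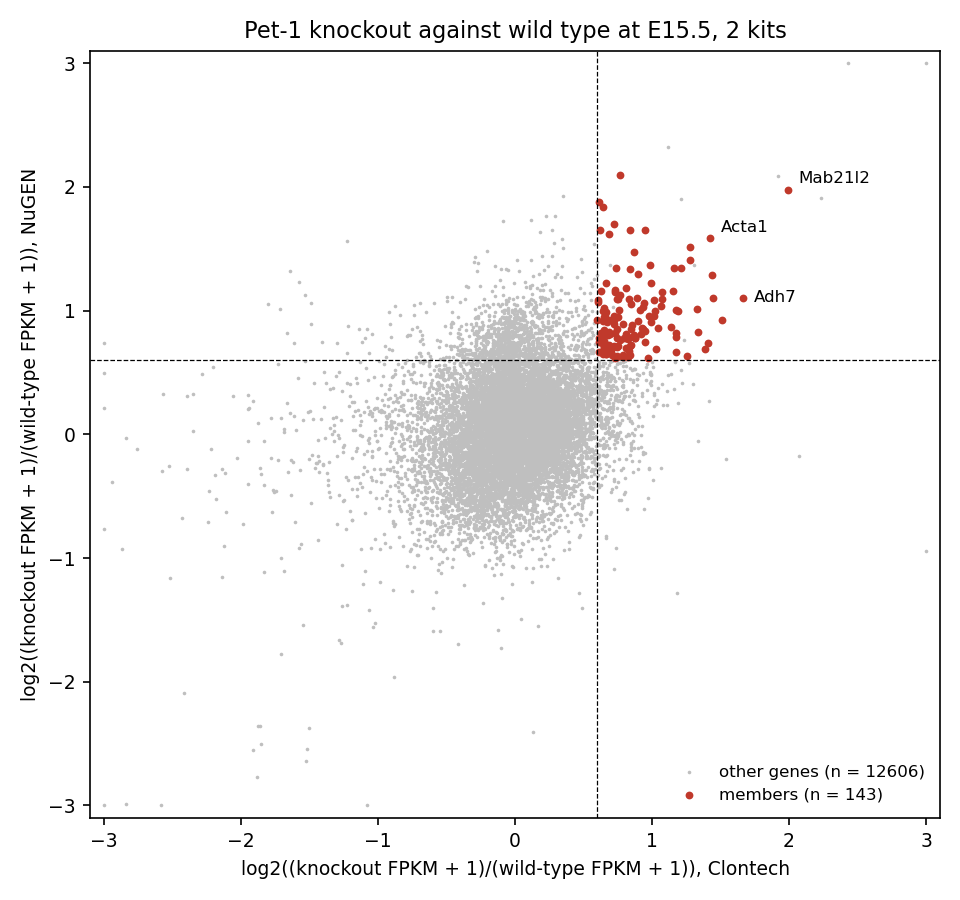
Each point is 1 gene with status OK in both tables, placed by its log2((knockout FPKM + 1)/(wild-type FPKM + 1)) with the Clontech kit (x axis) and with the NuGEN kit (y axis), where values beyond 3 in either direction are drawn at 3. The 143 members (red) lie in the upper right corner by the rule, whose threshold of 0.6 is dashed, and grey points in that corner are the 11 genes left out by name.

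The rule cut through a continuous range. Just inside it were Zglp1, Vps37d and Cxcr7, with Clontech log2 ratios of 0.605, 0.603 and 0.6002 and NuGEN ratios of 1.09, 1.07 and 0.93. Just outside were Spink10, Ptms and Gm12166, with Clontech ratios of 0.599, 0.598 and 0.595 and NuGEN ratios of 0.99, 0.67 and 1.29. Pnmt, the enzyme that makes adrenaline, was listed at 0 in the Clontech wild type and at 1.28 FPKM in the knockout in the authors' deposited table, and the uncharacterised AA467197 at 0 and 0.683 in the NuGEN table.

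Members by the size of the smaller ratio were led by Mab21l2, a gene of the Mab-21 family needed for eye development. In the authors' deposited tables its wild-type and knockout levels were 1.08 and 7.29 FPKM (Clontech) and 0.776 and 6.00 FPKM (NuGEN), log2 ratios of 1.99 and 1.98, and neither table called it. Next came Acta1, the actin of skeletal muscle, with ratios of 1.43 and 1.59, and Adm, the vasodilator peptide adrenomedullin, with 1.44 and 1.29. All of these 3 were under 2 FPKM in both wild types. Among the 15 leading members the most abundant was Enc1, a BTB-kelch protein of neurons that binds actin and serves as a ubiquitin ligase adaptor, at 145 and 336 FPKM (Clontech) and 65.9 and 169 FPKM (NuGEN) in the authors' deposited tables. Lmo1, a LIM-only protein that bridges transcription factors, stood at 27.4 and 67.9 FPKM and 17.9 and 52.8 FPKM there. Phlda1, an inducible protein with a pleckstrin homology-like domain, had ratios of 1.01 and 1.09. Tm4sf5 (a membrane protein with 4 spans), the GH3-domain gene Ghdc, Pcp4l1 and the transcripts 2410057H14Rik and 2310030G06Rik were between 0.353 and 1.77 FPKM in the wild types. For Adh7, an alcohol dehydrogenase that oxidises retinol, the ratios were 1.67 and 1.10, and for Mrap2, a partner of melanocortin receptors, 1.44 and 1.10.

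**Figure D2:**
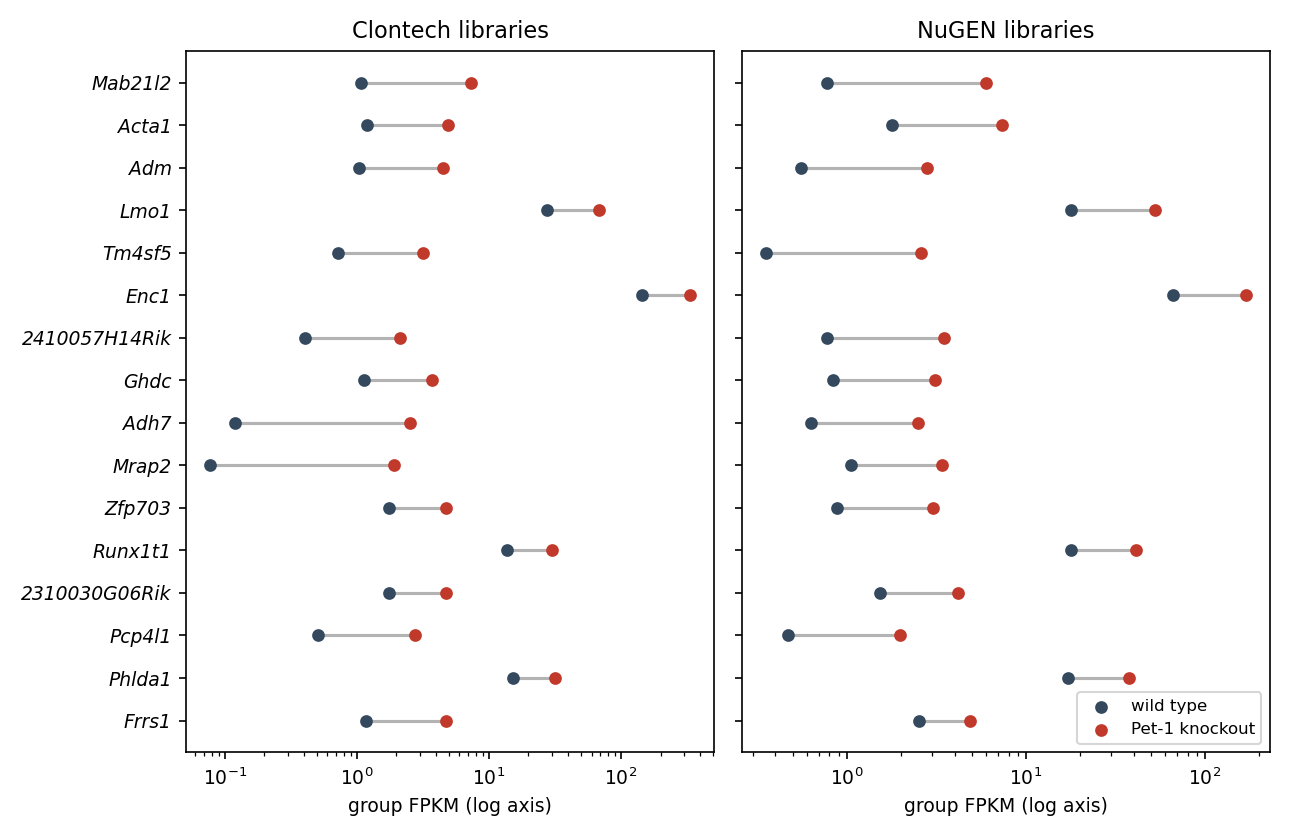
Group FPKM on a log axis in the wild type (dark) and the Pet-1 knockout (red), from the Clontech table (left) and the NuGEN table (right), for the 15 members with the largest smaller ratio and for Frrs1. Each panel has its own axis, and in both tables Enc1, Lmo1, Runx1t1 and Phlda1 were the 4 most abundant of those shown.

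A measure that took no part in the rule was the course of the same genes in normal development, from E11.5 to the first postnatal days, since neither of these stages entered a knockout table. In wild-type neurons 67 of the 143 members were higher in PN than at E11.5 and 7 were lower (limma on log2(FPKM + 1), Benjamini-Hochberg adjusted p below 0.05 over all genes tested and at least 1.5-fold). Among the 11741 genes tested, 17.4% were called higher and 10% lower. Of the 122 members tested these shares were 54.9% and 5.74%, and of all 143 members 46.9% and 4.90%. A further 48 members were tested and not called, 19 had too low a level for the test (under 1 FPKM in more than 6 of 9 libraries), and 2, March4 and March11, had no matching row in the stage matrix. Of the 122 members that were tested, 39 reached 1 FPKM in every library of no more than 1 stage, and 29 of these were called higher, an outcome that the filter on low values favours. The 83 members at 1 FPKM in every library of 2 or 3 stages gave 38 calls of higher and 7 of lower. The share of all genes called under that condition was not computed. Genes listed at 0 at E11.5 can still meet it through E15.5 and PN, as Gpr12 did, so it does not remove the effect of the filter. With no filter, 52 of 141 members were higher and 4 lower, against 6.91% and 3.62% of all genes. Those 22542 genes were not limited to the 12749 with status OK in both knockout tables, as the members were. The sets compared are therefore unlike. For 74 members every PN library lay above every E11.5 library, and for 9 every E11.5 library lay above every PN library, against 23.6% and 16.7% of all genes tested. Of the 122 members tested, these counts were 69 and 9.

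The microglia markers also differed between these stages, with summed FPKM of 2.51 to 11.1 in the E11.5 libraries and 116 to 1057 in the PN libraries, the highest in PN library b (letters follow the order of the columns). Without that library 49 members were called higher and 5 lower, and without PN library a or c 51 and 53 were called higher. In the same order, 12.007%, 13.46% and 12.96% of all genes tested were called higher. PN libraries a and c still had microglia sums of 116 and 136 FPKM, above every E11.5 library. These counts therefore cannot separate microglia from stage. Immediate early genes, summed over 13, were at 93.0 to 175 FPKM at E11.5 and 241 to 354 in PN. Of the other cell type lists, the sums did not overlap and were higher in PN for oligodendrocyte lineage (6.10 to 12.6 and 13.2 to 17.0 FPKM), for blood (0 to 0.720 and 0.921 to 10.6), for GABA and glycine neurons (12.3 to 22.5 and 27.4 to 45.6 FPKM), for dopamine, noradrenaline and acetylcholine neurons (0.0955 to 0.569 and 3.85 to 66.0) and for motor neurons (0 to 0.0374 and 1.79 to 9.72). The sum of dividing progenitor markers was lower in PN, at 13.7 to 22.2 and 7.91 to 9.24, and so was that of serotonin identity, at 1494 to 1972 and 765 to 1256. The part of these markers in the members' course was not tested. Genes lower in both knockouts by the mirrored threshold, 111 in number, gave another balance: 28 were higher in PN and 25 lower, or 25.2% and 22.5% of them. The difference between both sets was not tested.

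**Figure D3:**
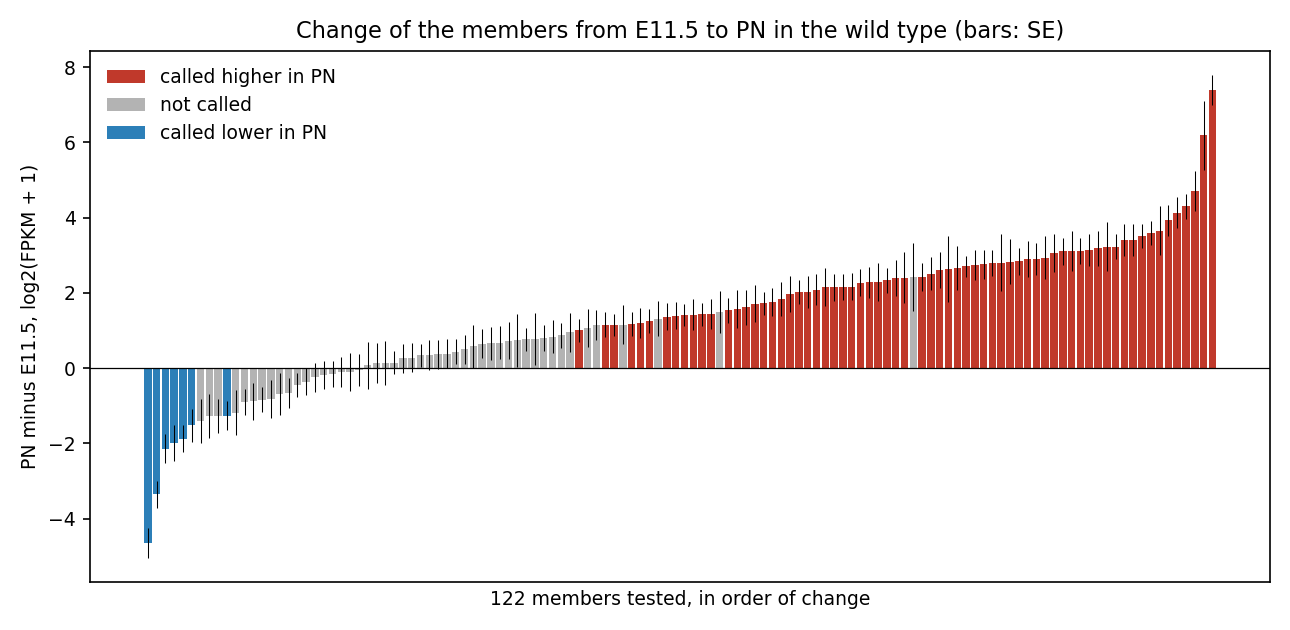
Difference between PN and E11.5 in log2(FPKM + 1) for the 122 members tested, ordered by size, with bars for the SE of the limma fit over 9 libraries. Red bars are the 67 members called higher in PN, blue bars the 7 called lower, and grey bars the 48 not called.

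At E15.5 the wild-type level of most of these members lay between the earlier and the later stage. Of the 67 called higher, 48 had their E15.5 mean between the means of E11.5 and PN, 10 had it below E11.5 and 9 above PN. Over the 141 members with a row, the highest mean was in PN for 95, at E15.5 for 20 and at E11.5 for 26, and the lowest mean was at E11.5 for 84, at E15.5 for 48 and in PN for 9. These counts were not made for all genes, so they cannot show whether the order of stages is particular to the members. The E15.5 libraries appear to be the wild type of the Clontech knockout table (median ratio of FPKM 1.01 over 6395 genes, with 5% to 95% between 0.874 and 1.19), so a low E15.5 level is in part what the rule chose. No test is given for the intervals that end or begin at E15.5.

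Runx1t1 and Cbfa2t3 encode MTG proteins, corepressors without DNA binding of their own that bring histone deacetylases to other factors, and Zfp703 encodes a zinc finger corepressor. Runx1t1 (chr4:13742628-13895056, GRCm38) was at 13.7 and 30.0 FPKM in the Clontech wild type and knockout and at 17.9 and 41.0 FPKM with the NuGEN kit in the authors' deposited tables. For Cbfa2t3 the same tables gave 3.47 and 8.06 FPKM and 5.16 and 11.3 FPKM, and both tables called both genes. The third MTG gene, Cbfa2t2, was no member, with log2 ratios of -0.30 and -0.61. Zfp703 (chr8:26977336-26981462, GRCm38) was at 1.74 and 4.78 FPKM and 0.885 and 3.02 FPKM in the authors' deposited tables. In a list of 20 corepressors and partners, these 3 were the ones called higher in both tables, 0 were lower in both, and the median ratio over 17 with status OK was 0.25 (Clontech) and 0.13 (NuGEN). Tle4, a Groucho corepressor, had ratios of 0.61 and 0.26 and was called in neither table. In this list the Clontech table called 3 genes higher and 0 lower. The NuGEN table called 4 higher and 2 lower, the latter being Cbfa2t2 and the Groucho gene Tle2 (ratio -0.82).

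The course of these corepressors in normal neurons differed. Runx1t1 was at 0.339, 0.407 and 1.06 FPKM in the 3 E11.5 libraries, 13.6, 8.30 and 16.3 at E15.5 and 5.81, 6.59 and 7.48 in PN. All PN libraries lay above all E11.5 libraries (2.27 ± 0.36 on the log2 scale, SE, limma adjusted p = 5.78e-04). Zfp703 was at 2.89, 0.347 and 4.55 FPKM at E11.5, 3.01, 1.53 and 0.832 at E15.5 and 0.844, 1.19 and 0.317 in PN, with overlap between all stages (-0.82 ± 0.50 on the log2 scale, SE, limma adjusted p = 0.251). Without E11.5 library b, the lowest of its stage, Zfp703 was called lower in PN (log2 change -1.41, limma, adjusted p = 0.0340). Cbfa2t3 ranged from 1.45 to 5.79 FPKM over the 9 libraries and was not called (0.38 ± 0.38 on the log2 scale, SE, limma adjusted p = 0.501).

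Frrs1 (chr3:116859567-116907714, GRCm38) encodes a ferric chelate reductase, a membrane protein that reduces iron. It stood at 1.18 and 4.79 FPKM in the Clontech wild type and knockout and at 2.52 and 4.87 FPKM with the NuGEN kit in the authors' deposited tables. In normal neurons it was near 0 at E11.5, with 0, 0.0678 and 0 FPKM, then 1.73, 1.30 and 0.452 at E15.5 and 1.06, 3.70 and 3.26 in PN (1.76 ± 0.38 on the log2 scale, SE, limma adjusted p = 0.00412). Of 14 genes for iron handling and ferric reduction with status OK, Frrs1 was the 1 called higher in both tables and 0 were lower in both, with a list median of -0.08 and 0.12. The ferritin genes Fth1 and Ftl1 had ratios of -0.09 and -0.04 (Clontech) and 0.66 and 0.55 (NuGEN), and neither table called either gene.

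**Figure D4:**
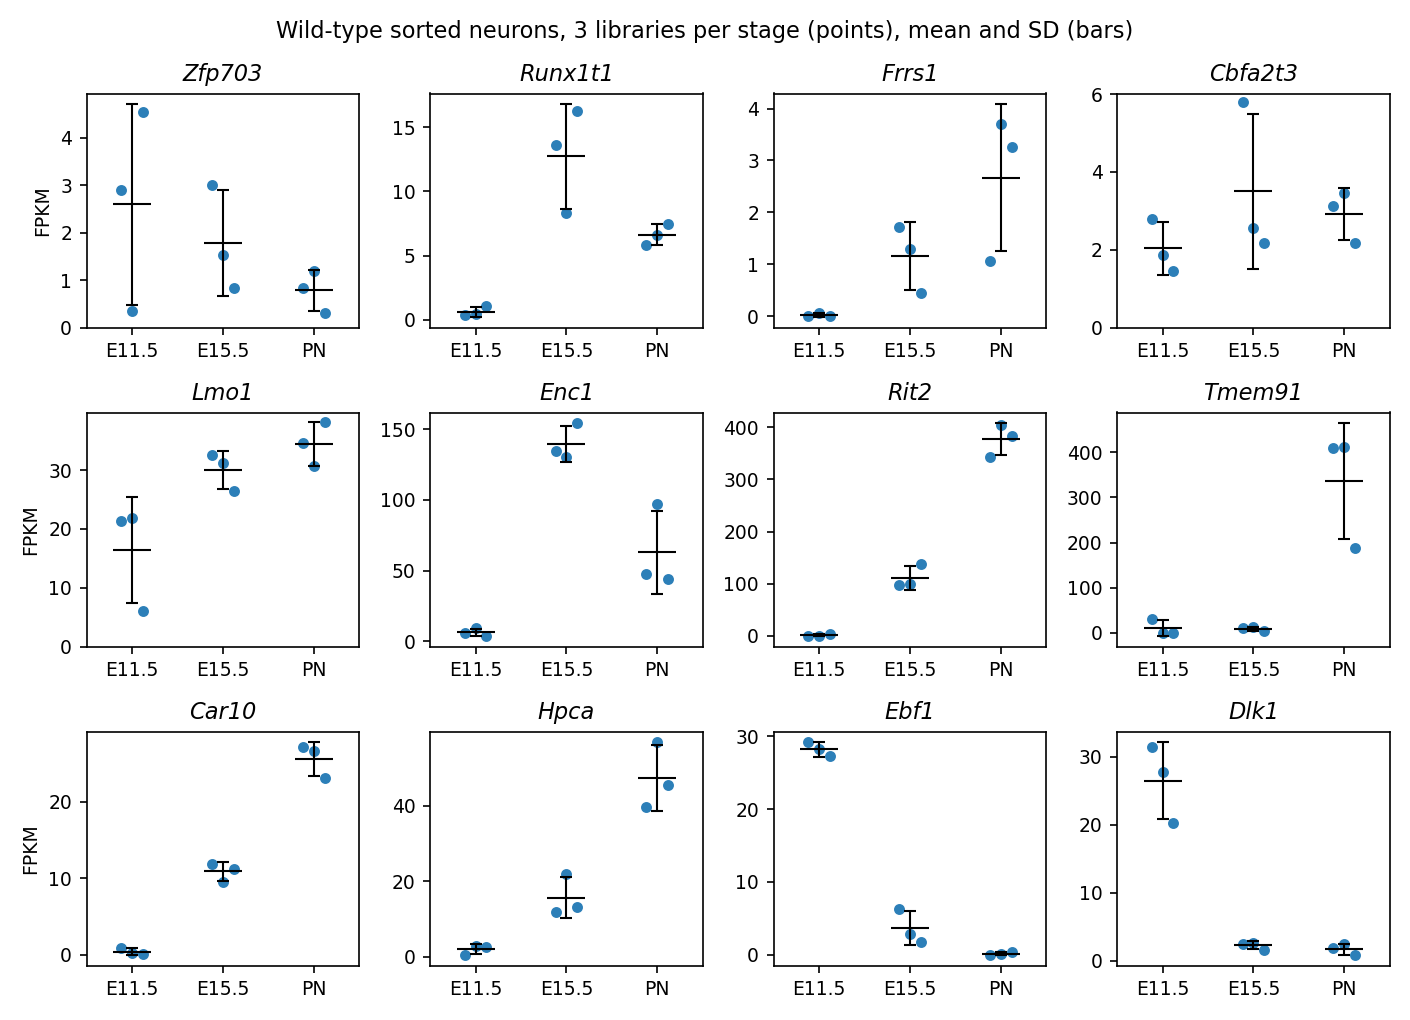
FPKM of 12 members in the 3 wild-type libraries of each stage (points), with the mean and SD (bars), each panel on its own linear axis. Rit2, Tmem91, Car10 and Hpca were highest in PN, Ebf1 and Dlk1 highest at E11.5, and Runx1t1 and Enc1 had their highest mean at E15.5.

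For a fuller account 90 members were sorted into 8 groups by known role, after their values had been seen, and 53 were left in none. Beside each group count below stand 17.4% higher and 10% lower among all genes tested, and no group was tested as such. Group sizes include members without a stage test: 3 of the 20 regulators, 2 of 10 secreted factors and 3 of 9 ubiquitin ligase and adaptor genes, besides those named below. Of 20 regulators of transcription and RNA, 8 were higher in PN than at E11.5 and 1, Ebf1, was lower. Ebf1, a helix-loop-helix factor of early neuronal differentiation, fell from 29.2, 28.2 and 27.2 FPKM at E11.5 to 0.0250, 0.0901 and 0.403 in PN, with 6.35, 2.92 and 1.75 between (-4.65 ± 0.39 on the log2 scale, SE, limma adjusted p = 6.63e-06). In the authors' deposited tables Ebf1 was at 3.42 and 6.44 FPKM (Clontech) and 4.17 and 9.002 FPKM (NuGEN) in wild type and knockout. Lmo1 was at 21.4, 21.8 and 6.10 FPKM at E11.5 and 34.5, 30.7 and 38.1 in PN (1.20 ± 0.41 on the log2 scale, SE, limma adjusted p = 0.0443). That call was lost in 12 of 16 alternative settings, 7 of them the removal of single libraries, and the adjusted p (limma) reached 0.153. Myc, the growth regulator, was at or near 0 at E11.5 (0, 0.0382 and 0.0554 FPKM) and was at 6.396, 4.31 and 2.17 FPKM in PN (2.28 ± 0.41 on the log2 scale, SE, limma adjusted p = 0.00144). In the authors' deposited tables Myc was at 11.6 and 21.5 FPKM (Clontech) and 14.7 and 24.8 FPKM (NuGEN) in wild type and knockout. Klf7, a Krüppel-like factor of sensory and other neurons, and Bend4 were higher in PN by 1.39 (SE 0.36) and 1.16 (SE 0.32) on the log2 scale. The call of Klf7 was lost with no filter on low values, and also without PN library b (limma, adjusted p up to 0.0707). The call of Bend4 was lost without E11.5 library a or PN library b (limma, adjusted p up to 0.0749). With a pseudocount of 5 the change of Bend4 was under 1.5-fold (0.37 on the log2 scale). Arpp21, an RNA-binding phosphoprotein of neurons, went from 0.0412, 0.0196 and 0 to 8.02, 10.3 and 11.3 FPKM (3.40 ± 0.43 on the log2 scale, SE, limma adjusted p = 1.23e-04).

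Of 10 secreted factors, 5 were higher in PN and 2 lower. Bdnf, the neurotrophin, was at 0.00835, 0 and 0.0214 FPKM in the E11.5 libraries and 1.67, 5.61 and 4.06 in PN (2.15 ± 0.36 on the log2 scale, SE, limma adjusted p = 9.11e-04), and the authors' deposited tables gave 1.47 and 3.15 FPKM (Clontech) and 1.62 and 4.60 FPKM (NuGEN) for wild type and knockout. Nppa, the precursor of atrial natriuretic peptide, reached 2.30, 10.8 and 16.7 FPKM in PN from at most 0.0719 at E11.5 (3.11 ± 0.53 on the log2 scale, SE, limma adjusted p = 9.39e-04). Neurexophilin Nxph3, a ligand of alpha-neurexins, changed by 2.83 (SE 0.36) on the log2 scale. The chemokine gene Ccl27a, at 282 and 466 FPKM (Clontech) and 147 and 481 FPKM (NuGEN) in the authors' deposited tables, was the most abundant member in both wild types. Its span overlaps Il11ra1, with ratios of -0.28 and 1.32, and the locus holds near-identical copies, so its values are uncertain. Dlk1, a Notch-related ligand of embryonic tissue, and Igfbp4, which binds insulin-like growth factors, fell. Dlk1 was at 31.4, 27.8 and 20.3 FPKM at E11.5 and 1.88, 2.45 and 0.871 in PN, with no overlap (-3.35 ± 0.36 on the log2 scale, SE, limma adjusted p = 3.70e-05). Igfbp4 was at 14.2, 17.2 and 24.3 FPKM at E11.5, 0.393, 1.58 and 0.830 at E15.5 and 1.17, 7.38 and 5.14 in PN (-1.99 ± 0.49 on the log2 scale, SE, limma adjusted p = 0.00902). The call of Igfbp4 was lost with no filter on low values (limma, adjusted p = 0.0603).

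Receptor genes and their partners numbered 9, of which 6 were higher in PN, 0 lower, and 3 too low to test. Dner, a transmembrane Notch ligand of neurons, went from 1.72, 1.85 and 3.39 FPKM at E11.5 to 27.3, 25.6 and 23.9 at E15.5 and 44.7, 28.1 and 36.2 in PN (3.50 ± 0.32 on the log2 scale, SE, limma adjusted p = 1.02e-05). The orphan receptor gene Gpr12 was listed at 0 in all E11.5 libraries and at 8.88, 6.22 and 10.5 FPKM in PN (limma, adjusted p = 2.84e-05). Htr7, a serotonin receptor coupled to cyclic AMP, was also listed at 0 at E11.5 and was at 2.12, 0.466 and 2.73 FPKM in PN (limma, adjusted p = 0.0132), and the authors' deposited tables gave it 0.976 and 2.82 FPKM (Clontech) and 2.06 and 4.44 FPKM (NuGEN). The call of Htr7 was lost without PN library a or PN library c (limma, adjusted p up to 0.0627). With a pseudocount of 5 the change of Htr7 was under 1.5-fold (0.42 on the log2 scale). Csf2ra, a subunit of the receptor for the cytokine GM-CSF that myeloid cells also express, was at 3.30, 15.1 and 2.36 FPKM at E11.5 and 46.3, 54.3 and 30.9 in PN (2.83 ± 0.59 on the log2 scale, SE, limma adjusted p = 0.00348). The call of Csf2ra was lost with no filter on low values (limma, adjusted p = 0.0501). The microglia sum was at most 11.1 FPKM at E11.5 and at least 116 in PN. Within E11.5, library b had the lowest microglia sum, 2.51, and the highest Csf2ra level. Within E15.5 and within PN, library b had the highest microglia sum, 32.3 and 1057, and the highest Csf2ra level, 11.1 and 54.3 FPKM. The part of microglia in the Csf2ra values was not tested. Mrap2 was near 0 at E11.5 and E15.5 and stood at 5.95, 6.73 and 5.91 FPKM in PN (2.71 ± 0.28 on the log2 scale, SE, limma adjusted p = 2.85e-05). The relaxin-3 receptor gene Rxfp3, the NMDA receptor subunit Grin3a and Cxcr7, a scavenging receptor for CXCL12, were the members too low to test, at no more than 1.25 FPKM in any stage library.

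Among 12 channel, calcium sensor and synaptic genes, 7 were higher in PN and 2 lower. Hpca and Hpcal1 encode calcium sensors of the hippocalcin family. Hpca went from 0.441, 2.88 and 2.63 FPKM at E11.5 to 39.5, 56.8 and 45.4 in PN (4.13 ± 0.41 on the log2 scale, SE, limma adjusted p = 2.29e-05). Hpcal1 was at 155, 146 and 88.3 FPKM at E11.5, 72.0, 86.3 and 66.7 at E15.5 and 257, 375 and 231 in PN (1.15 ± 0.29 on the log2 scale, SE, limma adjusted p = 0.0101), and at 75.2 and 125 FPKM (Clontech) and 72.3 and 128 FPKM (NuGEN) in wild type and knockout in the authors' deposited tables. Kcnip1, a calcium-binding partner of Kv4 potassium channels, and the neuronal chloride exporter Slc12a5 changed by 2.94 (SE 0.57) and 2.38 (SE 0.48) on the log2 scale. Syt13, a synaptotagmin, was at 1.11, 0.0211 and 1.91 FPKM at E11.5 and 18.9, 13.7 and 24.5 in PN (3.40 ± 0.44 on the log2 scale, SE, limma adjusted p = 1.35e-04). The falls were those of Kcnh4, a potassium channel, from 14.7, 10.9 and 11.2 to 3.75, 1.89 and 2.32 FPKM (-1.88 ± 0.36 on the log2 scale, SE, limma adjusted p = 0.00191), and of Nos1ap, an adaptor of neuronal nitric oxide synthase (-1.26 ± 0.38 on the log2 scale, SE, limma adjusted p = 0.0275). The call of Nos1ap was lost with no filter on low values, and also without E11.5 library a, PN library b or PN library c (limma, adjusted p up to 0.104). The call of Hpcal1 was lost without PN library b (limma, adjusted p = 0.0546).

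The 5 adhesion and guidance genes were called higher in PN, against 17.4% of all genes tested and 46.9% of all members. The group as such was not tested. The synaptic adhesion gene Cadm2 went from 0.249, 0.123 and 0.390 to 4.65, 3.86 and 12.1 FPKM (2.51 ± 0.44 on the log2 scale, SE, limma adjusted p = 0.00115), the receptor phosphatase Ptprd from 1.06, 0.945 and 2.96 to 7.32, 7.42 and 16.3 (2.08 ± 0.42 on the log2 scale, SE, limma adjusted p = 0.00262), and Dab1, the adaptor of reelin signalling, from 1.22, 4.62 and 0.191 to 6.89, 10.8 and 12.7 (2.14 ± 0.51 on the log2 scale, SE, limma adjusted p = 0.00714). The call of Dab1 was lost with no filter on low values (limma, adjusted p = 0.0563). Tm4sf5 and Parm1 were at no more than 0.0667 FPKM at E11.5 and at 10.4, 12.46 and 11.51 and 5.49, 6.86 and 5.51 FPKM in PN.

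Of 12 signalling kinases, GTPases and their regulators, 6 were higher in PN and 1 lower. Rit2, a Ras-like GTPase of neurons, had the largest log2 change of the members tested, with 0.584, 0.491 and 3.74 FPKM at E11.5, 97.5, 99.0 and 138 at E15.5 and 343, 404 and 383 in PN (7.40 ± 0.40 on the log2 scale, SE, limma adjusted p = 2.53e-07). In the authors' deposited tables Rit2 was at 130.3 and 206 FPKM (Clontech) and 99.6 and 176 FPKM (NuGEN) in wild type and knockout. These knockout levels lay between those of the E15.5 and PN libraries, across tables that were scaled separately. Phlda1 was at 6.75, 2.09 and 7.51 FPKM at E11.5 and 24.4, 26.1 and 12.3 in PN (1.83 ± 0.44 on the log2 scale, SE, limma adjusted p = 0.00838), and Prkce, protein kinase C epsilon, at 0.408, 0.603 and 0.462 and 2.68, 2.03 and 2.23 (1.15 ± 0.33 on the log2 scale, SE, limma adjusted p = 0.0223). The call of Phlda1 was lost with no filter on low values (limma, adjusted p = 0.0573). The call of Prkce was lost without PN library a, PN library b or PN library c (limma, adjusted p up to 0.0770). With a pseudocount of 5 the change of Prkce was under 1.5-fold (0.41 on the log2 scale). The phosphatase Dusp2 and the adaptor Gab3 changed by 2.90 (SE 0.42) and 2.73 (SE 0.40) on the log2 scale. Arhgef3, a guanine nucleotide exchange factor, fell (-1.53 ± 0.43 on the log2 scale, SE, limma adjusted p = 0.0193). The call of Arhgef3 was lost with no filter on low values, and also without E11.5 library b, E11.5 library c, PN library a or PN library b (limma, adjusted p up to 0.0930). With a pseudocount of 5 the change of Arhgef3 was under 1.5-fold (-0.57 on the log2 scale). Dact1, a Dishevelled-binding regulator of Wnt signalling, and Spry1, an inhibitor of Ras signalling, were not called (limma, adjusted p = 0.116 and 0.229).

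Ubiquitin ligase and adaptor genes gave 4 rises and 1 fall of 9. Enc1 was at 5.84, 9.05 and 3.88 FPKM at E11.5, 135, 130.4 and 154 at E15.5 and 47.2, 97.0 and 44.1 in PN, so that PN lay above E11.5 and below E15.5 in every library (3.104 ± 0.36 on the log2 scale, SE, limma adjusted p = 5.84e-05 from E11.5 to PN). Rnf152, a ligase of lysosomes, was at 0.405, 0.565 and 0.369 and 6.19, 3.44 and 5.18 FPKM in E11.5 and PN (2.01 ± 0.32 on the log2 scale, SE, limma adjusted p = 5.83e-04). Kctd12, an auxiliary subunit of GABA-B receptors with a BTB domain, changed by 1.404 (SE 0.29) on the log2 scale. With a pseudocount of 5 the change of Kctd12 was under 1.5-fold (0.46 on the log2 scale). Spsb4, a SOCS box adaptor, fell from 28.6, 49.5 and 24.6 to 10.7, 4.82 and 5.50 FPKM, with 3.90, 2.70 and 3.50 at E15.5 (-2.15 ± 0.38 on the log2 scale, SE, limma adjusted p = 0.00123).

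Among 13 enzymes of metabolism 5 were higher in PN, 0 lower, and 4 too low to test. Pfkp, a phosphofructokinase of glycolysis, went from 0.491, 1.4004 and 7.98 to 42.4, 27.1 and 51.9 FPKM (3.66 ± 0.65 on the log2 scale, SE, limma adjusted p = 0.00127), and Hs3st1, which sulphates heparan, from 0, 1.34 and 0.204 to 4.91, 9.86 and 8.76 (2.60 ± 0.48 on the log2 scale, SE, limma adjusted p = 0.00157). Dio3, which inactivates thyroid hormone, was at no more than 0.0441 FPKM in any stage library, and at 0.0258 and 0.831 FPKM (Clontech) and 0.416 and 3.46 FPKM (NuGEN) in the authors' deposited tables. Adh7, Fbp2 and Pnmt were the others too low to test, and Pnmt was at 0, 7.505 and 6.29 FPKM in PN.

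Outside these groups, Tmem91 had the second largest rise, from 31.0, 1.02 and 0.286 FPKM at E11.5 to 408, 412 and 188 in PN (6.18 ± 0.92 on the log2 scale, SE, limma adjusted p = 3.51e-04), and stood at 9.29 and 18.8 FPKM (Clontech) and 8.34 and 28.3 FPKM (NuGEN) in the authors' deposited tables. Car10, a carbonic anhydrase-related protein without enzyme activity that binds neurexins, went from 0.876, 0.264 and 0.0346 to 11.9, 9.56 and 11.2 and then to 27.1, 26.6 and 23.1 FPKM (4.30 ± 0.33 on the log2 scale, SE, limma adjusted p = 4.26e-06). The transcript 1700001L19Rik and the gene Dleu7 changed by 4.71 (SE 0.54) and 3.93 (SE 0.40) on the log2 scale. Mlf1 was at 2.28, 7.98 and 16.9 FPKM at E11.5 and 54.9, 54.8 and 97.0 in PN (3.06 ± 0.50 on the log2 scale, SE, limma adjusted p = 7.05e-04), and at 68.8 and 126 FPKM (Clontech) and 29.1 and 82.5 FPKM (NuGEN) in the authors' deposited tables. Among leading members of the knockout order, Ghdc and Pcp4l1 were not called (log2 changes -0.05 and -0.10, limma, adjusted p = 0.945 and 0.879), and Mab21l2, Adm and Adh7 were too low to test.

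The chromatin data asked where tagged Pet-1 sat. The deposited list held 4934 peaks with scores of 50 to 3133, as given by the authors' peak caller. Of 118 members with an annotated start in the RefSeq promoter table (GRCm38.p6, the same assembly as mm10), 21, or 17.8%, had a peak within 5 kb of a start. Among all 10093 genes with status OK and an annotated start, 34.6% had one, and among 89 genes lower in both knockouts 23.6% had one. For genes under 5 FPKM in the Clontech wild type the shares were 20.2% of 84 members and 28.7% of all, and for genes at 5 FPKM or more 11.8% of 34 members and 40.0% of all. With 1 precipitated sample there is no replicate, and no test of these shares was made.

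**Figure D5:**
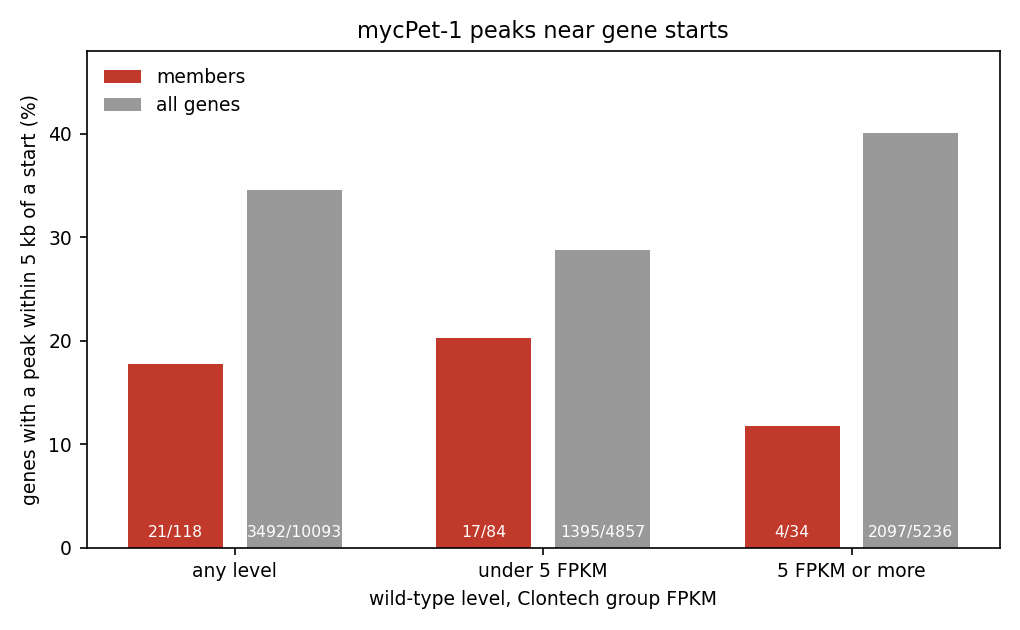
Share of genes with a mycPet-1 peak within 5 kb of an annotated start, at any level and split at 5 FPKM in the Clontech wild type. Red bars are the members with an annotated start. Grey bars are all genes with status OK in both knockout tables and an annotated start. The numbers in the bars are genes with a peak over genes counted, and in each of the 3 pairs the members' share is the lower one.

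The strongest peak near a member lay 772 bases from the start of Csf2ra (chr19:61225946-61227646), with a score of 333 and rank 340 in the list. Next were peaks over the starts of Snhg9, a host gene of a small nucleolar RNA whose span overlaps Rps2 (score 163), and Tprkb, which encodes a subunit of a tRNA-modifying complex (159), then a peak 810 bases from Gp1bb (125). The peaks at Spsb4 (chr9:97017700-97019171, score 108) and at D030056L22Rik (chr19:18712887-18713607, score 105) held the annotated starts. The median score of the 22 peaks near members was 82.7, and that of the whole list 88.3. Runx1t1, Zfp703 and Frrs1 were without a peak in this window, and so were Lmo1 and Enc1.

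Upstream sequence is printed for 3 members whose start lay inside a peak, to show where the ETS-type core CGGAA falls in the region that tagged Pet-1 occupied. Each run is the 250 bases before the start site, 5′ to 3′ on the strand of the gene, from RefSeq (GRCm38.p6), and capitals mark CGGAA or its reverse complement TTCCG. Spsb4 (chr9:97018356-97018605, minus strand) and D030056L22Rik (chr19:18712985-18713234, plus strand) hold 1 such core each, which begins at position -148 and -129 from the start. Spry1 (chr3:37639697-37639946, plus strand, peak score 91.8) holds 0 of CGGAA. It does hold the shorter core GGAA, which is left in lower case outside the marked form.
Spsb4: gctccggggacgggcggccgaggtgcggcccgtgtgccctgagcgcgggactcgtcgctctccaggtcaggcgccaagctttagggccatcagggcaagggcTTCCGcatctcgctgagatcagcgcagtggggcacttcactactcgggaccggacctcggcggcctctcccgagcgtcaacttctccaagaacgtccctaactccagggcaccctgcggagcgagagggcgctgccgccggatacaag
D030056L22Rik: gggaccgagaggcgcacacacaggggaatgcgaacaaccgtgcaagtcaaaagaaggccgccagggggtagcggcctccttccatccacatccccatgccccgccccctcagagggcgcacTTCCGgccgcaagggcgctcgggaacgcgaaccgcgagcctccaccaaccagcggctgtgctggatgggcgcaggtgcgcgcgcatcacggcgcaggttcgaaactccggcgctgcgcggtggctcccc
Spry1: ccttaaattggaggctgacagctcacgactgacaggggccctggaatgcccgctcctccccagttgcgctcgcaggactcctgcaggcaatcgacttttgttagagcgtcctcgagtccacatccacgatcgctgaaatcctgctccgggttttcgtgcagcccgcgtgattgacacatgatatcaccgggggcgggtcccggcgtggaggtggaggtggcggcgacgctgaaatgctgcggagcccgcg
In D030056L22Rik the core is part of the longer ETS form CCGGAAGT, read on the other strand. Over the 300 bases at each start (250 before and 50 after, both strands), CCGGAAGT was found in 7.14% of 168 promoters of members and in 7.74% of 12998 promoters of the genes with status OK, and in 3.89% of all 32851 promoters in the table. CGGAA, which CCGGAAGT contains, was in 42.3%, 47.1% and 29.9% of them, and the E-box CAGCTG in 16.1%, 15.49% and 16.3%. The short core GGAA was in 93.5%, 95.1% and 96.0%. The members' shares were within 5 percentage points of those of the genes with status OK. The median GC content of these promoters was 61.7% for members and 60.7% for the same genes.

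By position, 142 members were matched to RefSeq, of which 134 are annotated as protein coding and 8 as long non-coding RNA. On the chromosome of Fev, chromosome 1, lay 9 members, or 6.34% of those matched, against 5.67% of all genes with status OK. Within 10 Mb of Fev lay 2 members, March4 at 2.45 Mb on one side and Dner at 9.49 Mb on the other, or 1.41% against 0.679%. Neighbouring members were Fdx1l and Zglp1 (418 bases apart), Ghdc and Kcnh4 (5910), Ccl27a and Galt (10223), Hbq1a and Mpg (67366), and Slc9a3r2 and Snhg9 (69225). Reads of overlapping genes may be shared where strand was not used in counting, which the sources used here do not say. Overlaps with a measured gene that also had a NuGEN ratio above 1 were those of Ccl27a with Il11ra1, Tprkb with Cml1 (1.31) and Arpp21 with 2900079G21Rik (1.48), and their Clontech ratios were -0.28, 0.49 and -0.21.

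Marker lists of other cells and states held 0 members. Of 13 immediate early genes, 8 had status OK, 0 were called in both tables, and the Clontech table called 2, Fos and Btg2, lower. Markers of GABA and glycine neurons had a median ratio of 0.54 and 0.39 over 3 genes, and those of glutamate neurons -0.61 and 0.06 over 2 genes. The synthesis genes of GABA differed in sign: Gad2 had ratios of 0.64 and 0.55 and was called higher in the NuGEN table, and Gad1 had -0.63 and -0.43 and was called in neither. The vesicular glutamate transporter gene Slc17a8 was at 110 and 63.9 FPKM (Clontech) there. Dividing progenitor markers had medians of -0.82 and 0.37 over 4 genes, motor neuron markers of 0.32 and 0.07 over 2, and oligodendrocyte lineage markers of -0.17 and 0.21 over 6. In the oligodendrocyte list the authors' deposited NuGEN table called 2 genes higher in the knockout, Olig1 at 1.03 and 2.65 FPKM and Mbp at 4.86 and 9.35, and the Clontech table called 0. Blood markers, over 2 genes, had medians of -1.66 and 0.90. The 1 gene measured of meninges and fibroblasts had ratios of -1.5 and 0.19. The lists for endothelium and mural cells, and for dopamine, noradrenaline and acetylcholine neurons, had 0 genes with status OK in both tables. In the authors' deposited Clontech table Th, the dopamine synthesis gene, was at 5.66 and 2.15 FPKM with status OK and was not called, and in the NuGEN table it was at 0.0622 and 0.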

How the data were processed

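RNA abundance was measured in sorted 5-HT neurons and mycPet-1 binding in 1 precipitated sample. The authors deposited FPKM values, per library for the 3 wild-type stages and per group for both knockout comparisons, with a log2 fold change, p-value and q-value per gene per the file headers. TopHat2, Cufflinks, BWA and MACS 1.4.2 are named in the submitters' processing notes. The deposited peak list gives a score per peak on mm10, per the file headers. Read depth is unknown.

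From these, log2 ratios with a pseudocount of 1 were computed from group FPKM. Stage libraries were compared on log2(FPKM + 1) with limma 3.58.1 in R 4.3.3, in 1 fit over 9 libraries (6 residual degrees of freedom), where 3 or more libraries reached 1 FPKM, with Benjamini-Hochberg adjustment over all genes tested. The fold changes are on the log2(FPKM + 1) scale, which understates changes of low genes. Before the fit, 14 failed estimates were left out, and 3 columns of another stage that match no sample were not used. The stage columns show the group and not the numbered sample, so libraries are lettered in column order. The script was tested on simulated data.

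The members and gene lists were chosen with earlier results of these data known, and role groups after the values were seen. Members given in full were the 15 with the largest smaller ratio, Zfp703, Frrs1 and Runx1t1, those with the largest called stage changes, those with the highest peaks, and those at the threshold. Alternatives covered pseudocounts, filters, scaling, thresholds, peak windows and single libraries left out.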

Additional observations from a re-analysis of the deposited data

How the results depend on the processing

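The number of members depended on the rule. It was 479 with a pseudocount of 0.1, 22 with a pseudocount of 5, 251 at a threshold of 0.5, 16 at a threshold of 1, and 27 where the authors' q-value was also below 0.05 in both tables. For the course from E11.5 to PN, a filter of 5 FPKM in 3 libraries left 78 members to test. Of these, 44 were higher and 7 lower, against 17.95% and 12.56% of all genes tested with that filter. Among the 27 members with q below 0.05 in both tables, 18 were higher and 1 lower, against 17.4% and 10% of all genes tested. These 27 were picked by the contrasts that chose the members. Without a filter 4 members were lower, against 3.62% of all genes in that fit. Leaving out 1 library at a time gave 49 to 67 members higher and 5 to 9 lower, and 1367 to 1994 genes higher and 859 to 1151 lower in all. Upper quartile scaling gave 66 members higher and 9 lower. Of 74 called members, 45 kept their call under every alternative in which they were tested. Signs were compared for 55 members only. Among these they turned for Ghdc, from -0.17 to 0.085 on the log2 scale with single libraries left out, and for Pcp4l1, from -0.29 to 0.20. Neither gene was called. With peaks scored at or above the list median, 7.63% of members had a peak, against 19% of all genes. The removal of E15.5 libraries and the split of peak shares at 5 FPKM were chosen after seeing the data. No paired analysis was possible because the stage columns do not carry the replicate numbers of the sample titles. The cause of these differences was not tested.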
